A study of Mus musculus with 12 samples.

Results

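The nucleosome remodelling and deacetylase (NuRD) complex was followed through the genes of its subunits other than the CHD ATPases. The 10 genes were taken by symbol from the known make-up of the complex: Hdac1, Hdac2, Mta1, Mta2, Mta3, Mbd3, Rbbp4, Rbbp7, Gatad2a and Gatad2b. All 10 were found by symbol among the 32699 gene symbols of the count table, as 33 of its 63759 transcripts, by a rule that uses no measured value. The set itself was chosen with earlier results of these data known. Splenic B cells of mice gave 4 groups of 3 RNA libraries. Chd4 knockout cells (KO) and wild-type cells (WT) had been cultured for 48 hr with LPS at 10 µg/ml, a bacterial cell wall component that activates B cells, together with the T cell cytokine IL-4 at 25 ng/ml, or were taken unstimulated (0 hr). The way in which Chd4 was deleted, the strain and age of the mice, the number of animals behind each library, and whether 48 hr and 0 hr libraries shared animals were not given in the sources used here. P-values therefore measure the spread between these libraries, which may be technical.

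NuRD joins an ATPase that slides nucleosomes, CHD4 in most cells, to a deacetylase that removes acetyl groups from histone tails, and is best known for lowering the output of the genes and enhancers that it occupies. HDAC1 and HDAC2 are the deacetylases, the MTA proteins are the scaffold that binds them, and RBBP4 and RBBP7 are histone chaperones that hold histone tails. MBD3 and the GATAD2 proteins tie this deacetylase part to the ATPase. In B cells NuRD is known as a partner of the transcription factors Ikaros and BCL6, the second of them through MTA3. The deacetylases and chaperones also serve other complexes, so their RNA is not a measure of NuRD alone.

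Estimated counts per library totalled 38956484 to 53189198, and the smallest count of any of the 10 genes in any library was 306, so all 10 passed the filter on low counts. Values are given as CPM, which divides counts by the library size, with library sizes corrected by TMM, the trimmed mean of M-values. Calls required an adjusted p under 0.05 in edgeR's quasi-likelihood test with Benjamini-Hochberg adjustment over 19125 genes. Chd4 itself was at 51.3, 38.8 and 74.7 CPM in KO 48 hr libraries, against 102, 96.1 and 123 CPM in WT 48 hr libraries, with a log2 fold change of -0.96 (SE 0.22, edgeR adjusted p = 0.038). At 0 hr it was at 100.02, 70.6 and 92.8 CPM in the libraries labelled KO, against 99.4, 68.1 and 92.8 CPM in WT libraries, so Chd4 RNA gave no check of the labels at that time. The 48 hr call held in 5 of 12 fits that left out 1 library. Along the component that ranked second (4.46% of variance), replicates 6 (0 hr) and 12 (48 hr) of the KO genotype had values between those of the WT libraries and those of the remaining KO libraries. Xist averaged 0.940 CPM in KO and 78.7 CPM in WT at 48 hr, and 1.57 CPM in KO and 259 CPM in WT at 0 hr. The Y-linked Ddx3y averaged 117 CPM in KO and 21.4 CPM in WT at 48 hr, and 119.9 CPM in KO and 26.0 CPM in WT at 0 hr, so WT libraries held RNA of both, and genotype and sex-linked expression cannot be told apart in any comparison of KO with WT. The 6 B cell markers summed to 5295 to 6447 CPM in KO 48 hr, 5734 to 6301 CPM in WT 48 hr, 6597 to 9042 CPM in KO 0 hr and 6487 to 8035 CPM in WT 0 hr. At 48 hr relative to 0 hr 1 of the 6 rose and 3 fell in each genotype. Of all genes, 33.0% rose and 37.7% fell in KO cells, and 33.0% rose and 40.9% fell in WT cells.

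The main difference in the subunit genes was between stimulated and unstimulated cells, and its direction was the same in both genotypes for each of the 9 genes called. In KO cells 8 of 10 rose and 1 of 10 fell at 48 hr relative to 0 hr, and in WT cells the counts were also 8 and 1 (with the other scalings below, 6 to 8 rose). The gene that fell was Mta3 in both, and Gatad2b was not called in either. Without KO replicates 6 and 12 there were again 9 calls in each genotype. Of all genes tested, 70.7% were called in KO cells (33.0% higher and 37.7% lower) and 73.9% in WT cells (33.0% higher and 40.9% lower), so a call over time was common. The median log2 fold change of the 10 genes was 1.40 in KO and 1.49 in WT cells, beside -0.30 and -0.39 for all genes. For those 9 genes the 48 hr and 0 hr libraries did not overlap within either genotype, as was the case for 33.0% of all genes upward and 39.5% downward in KO cells, and 34.9% upward and 44.9% downward in WT cells. These are fractions of sequenced RNA from bulk cells, and fewer cells of a type and less RNA per cell cannot be told apart.

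**Figure D1:**
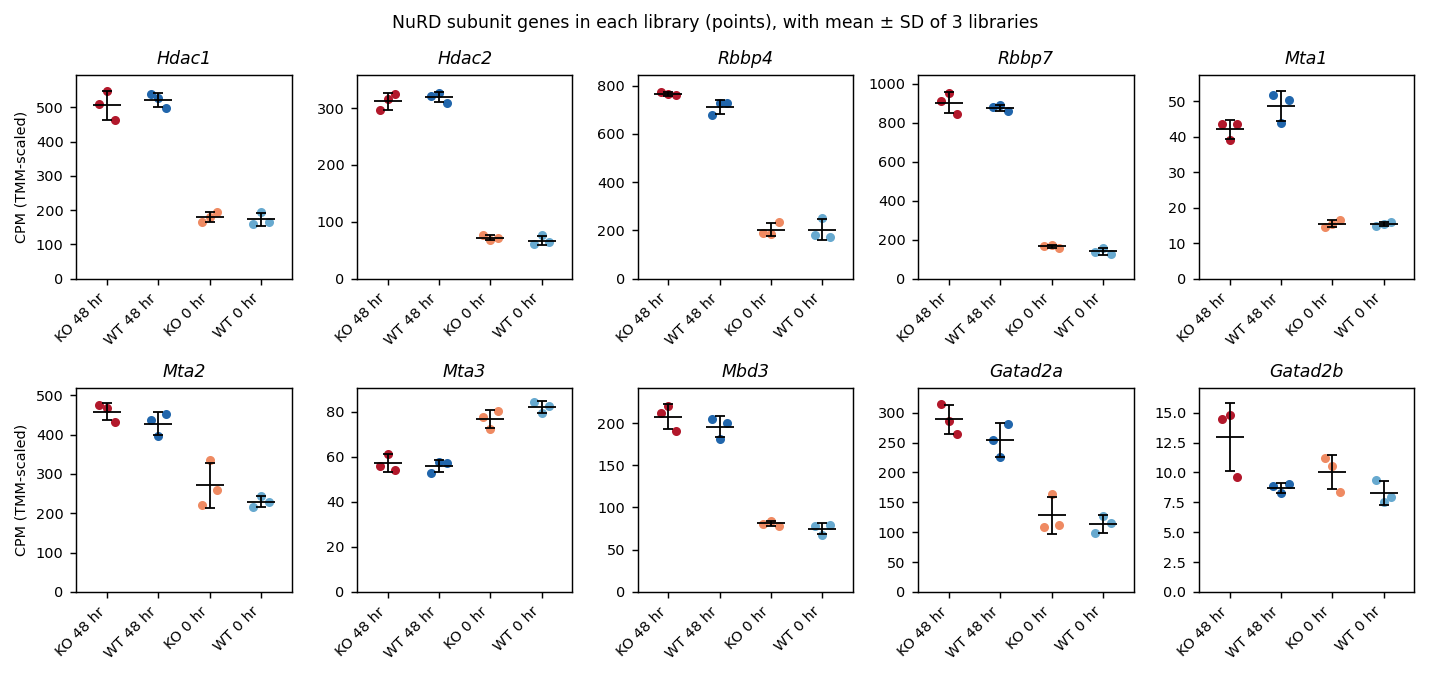
TMM-scaled CPM (vertical axis, from 0) of each subunit gene in the 12 libraries, with KO 48 hr, WT 48 hr, KO 0 hr and WT 0 hr from left to right. Points are libraries, and bars are the mean ± SD of 3; Mta3 stood lower at 48 hr (means of 57.2 CPM in KO and 56.0 CPM in WT, against 76.9 and 82.3 CPM at 0 hr), and Rbbp7 stood furthest above its 0 hr level (901 CPM in KO and 875 CPM in WT, against 166 and 139.8 CPM).

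Rbbp7 had the largest change of the 10 genes. This X-linked gene (chromosome X, 162760402 to 162779092 in mm10, plus strand) encodes the histone chaperone also called RbAp46. It was at 909.5, 950.2 and 843 CPM in KO 48 hr libraries, against 168, 173 and 156 CPM in KO 0 hr libraries. WT cells had 878, 888 and 859.8 CPM at 48 hr, against 135, 159 and 125 CPM at 0 hr. The fold change was 5.44 in KO (log2 2.44, SE 0.11, edgeR adjusted p = 3.2e-10) and 6.26 in WT cells (log2 2.65, SE 0.11, edgeR adjusted p = 1.7e-10). Its close relative Rbbp4 (chromosome 4, 129307100 to 129335370, minus strand), which encodes RbAp48, was at 775, 763 and 759.6 CPM in KO 48 hr libraries, against 188, 186 and 235 CPM in KO 0 hr libraries. In WT cells it was at 676, 728 and 728 CPM at 48 hr, against 182, 253 and 173 CPM at 0 hr. Rbbp4 rose by 3.78-fold in KO and 3.51-fold in WT cells (edgeR adjusted p = 4.4e-08 and 7.2e-08).

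The deacetylase Hdac2 (chromosome 10, 36974544 to 37001889, plus strand) came second. It was at 296, 316 and 326 CPM in KO 48 hr libraries, against 77.0, 67.3 and 72.2 CPM in KO 0 hr libraries. WT cells had 322, 327 and 309 CPM at 48 hr, against 61.1, 76.2 and 63.7 CPM at 0 hr. The fold change was 4.33 in KO and 4.77 in WT cells (edgeR adjusted p = 8.9e-10 and 4.8e-10). Hdac1 (chromosome 4, 129516104 to 129542713, minus strand), the paralog with which HDAC2 pairs in the complex, rose by less. It was at 509, 547 and 463 CPM in KO 48 hr libraries, against 164, 181 and 193 CPM in KO 0 hr libraries, a fold change of 2.82 (edgeR adjusted p = 3.7e-08). In WT cells it was at 538, 529 and 497 CPM at 48 hr, against 160.4, 194 and 164 CPM at 0 hr, a fold change of 3.02 (edgeR adjusted p = 1.8e-08).

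The promoters of the 3 genes with the largest rises and of Gatad2b, which had no call over time, are shown to let their letters be compared. RefSeq windows on GRCm38.p6 were matched for 8 of the 10 genes, all but Hdac1 and Mta3, and the 250 bases upstream of the RefSeq start are given here 5′ to 3′ on the gene's strand. Capitals mark matches, on either strand, to 5 short motifs: CACGTG (the E-box of MYC and MAX), TTNGCGC (E2F), CCAAT (NF-Y), CCGGAA (ETS) and the palindromic motif of STAT6.
Rbbp4: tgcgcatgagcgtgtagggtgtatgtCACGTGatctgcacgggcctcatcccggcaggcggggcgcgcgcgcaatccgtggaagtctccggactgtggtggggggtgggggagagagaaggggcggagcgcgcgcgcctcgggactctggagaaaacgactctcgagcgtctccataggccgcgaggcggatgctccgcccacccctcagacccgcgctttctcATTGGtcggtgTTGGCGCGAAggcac
Rbbp7: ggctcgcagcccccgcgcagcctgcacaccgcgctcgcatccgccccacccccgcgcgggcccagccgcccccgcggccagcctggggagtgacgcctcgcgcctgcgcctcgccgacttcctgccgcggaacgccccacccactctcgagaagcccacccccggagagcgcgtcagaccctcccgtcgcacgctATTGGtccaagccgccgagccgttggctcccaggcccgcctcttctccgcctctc
Hdac2: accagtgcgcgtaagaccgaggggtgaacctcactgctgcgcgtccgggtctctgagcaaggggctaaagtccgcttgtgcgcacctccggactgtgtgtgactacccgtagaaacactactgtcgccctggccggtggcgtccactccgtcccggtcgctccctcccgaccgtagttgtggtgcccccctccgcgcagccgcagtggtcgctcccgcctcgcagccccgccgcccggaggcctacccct
Gatad2b: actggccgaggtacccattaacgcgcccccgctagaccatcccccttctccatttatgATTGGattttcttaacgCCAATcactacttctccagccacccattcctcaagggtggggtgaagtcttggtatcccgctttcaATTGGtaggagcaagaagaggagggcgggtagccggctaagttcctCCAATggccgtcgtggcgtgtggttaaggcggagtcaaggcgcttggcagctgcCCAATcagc
The Rbbp4 window lies at chr4:129335371-129335620 (minus strand), that of Rbbp7 at chrX:162760122-162760371 (plus), that of Hdac2 at chr10:36974294-36974543 (plus) and the upstream one of the 2 Gatad2b windows at chr3:90292931-90293180 (plus). In Rbbp4 the E-box began 224 bases before the start, a CCAAT match on the opposite strand ended 22 bases before it, and a pair of E2F matches on opposite strands overlapped between 15 and 6 bases before it. In Rbbp7 the one match was to CCAAT, 55 bases before the start, in Hdac2 there was none, and in this window of Gatad2b, the gene with no call over time, there were 5 to CCAAT. The 8 matched genes had 10 windows. The E-box was found in 1 of these windows and in 6.02% of 32851 promoter windows of this length. The E2F motif was found in 2 of 10 (Rbbp4 and Gatad2a) and in 5.19% of all, and CCAAT in 6 of 10 and in 33.8%. The ETS motif was found in 2 of 10 (Mta2 and Gatad2a) and in 12.0% of all, and the STAT6 motif in 0 of 10 and in 5.85%. For Rbbp7, and for the Gatad2a window with the E2F and ETS matches, the bases after the RefSeq start were not matched to a GENCODE transcript. The GENCODE start of Rbbp7 (162760402) lies downstream of its RefSeq start, so distances in these windows depend on the start chosen. These are matches of letters in a window, and no binding was measured.

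The 3 scaffold genes went different ways. Mta2 (chromosome 19, 8941875 to 8952303, plus strand), the most abundant of them, was at 475, 468 and 433 CPM in KO 48 hr libraries, against 220.3, 334 and 259 CPM in KO 0 hr libraries. WT cells had 436, 396 and 452 CPM at 48 hr, against 216, 245 and 228 CPM at 0 hr. Its log2 fold change was 0.76 in KO (SE 0.13, edgeR adjusted p = 0.0002) and 0.90 in WT cells (SE 0.14, edgeR adjusted p = 4.3e-05), the smallest of the 8 rises. Mta1 (chromosome 12, 113098278 to 113137206, plus strand) was at 43.5, 39.1 and 43.8 CPM in KO 48 hr libraries, against 14.5, 15.4 and 16.6 CPM in KO 0 hr libraries. In WT cells it was at 51.7, 44.0 and 50.6 CPM at 48 hr, against 14.8, 15.3 and 16.02 CPM at 0 hr. Mta1 rose by 2.72-fold in KO and 3.17-fold in WT cells (edgeR adjusted p = 6.9e-08 and 1.5e-08).

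Mta3 (chromosome 17, 83706163 to 83821516, plus strand), whose protein is known in germinal centre B cells as the MTA partner of BCL6, fell. It was at 56.1, 61.5 and 54.0 CPM in KO 48 hr libraries, against 77.9, 72.3 and 80.4 CPM in KO 0 hr libraries. WT cells had 52.7, 57.7 and 57.5 CPM at 48 hr, against 84.6, 79.5 and 82.7 CPM at 0 hr. Its log2 fold change was -0.43 in KO (SE 0.09, edgeR adjusted p = 0.0011) and -0.55 in WT cells (SE 0.09, edgeR adjusted p = 0.00013). Bcl6 RNA fell as well, with log2 fold changes of -2.25 in KO and -3.29 in WT cells (edgeR adjusted p = 1.1e-05 and 3.5e-07), to 10.3 CPM in KO 48 hr and 5.78 CPM in WT 48 hr, against 49.1 CPM in KO 0 hr and 56.5 CPM in WT 0 hr.

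Mbd3 (chromosome 10, 80392539 to 80399550, minus strand) encodes the methyl-CpG-binding domain protein that marks one form of NuRD, and in mammals has itself lost binding to methylated DNA. It was at 212, 219.7 and 191 CPM in KO 48 hr libraries, against 80.8, 84.2 and 78.4 CPM in KO 0 hr libraries. In WT cells it was at 205, 181 and 199.6 CPM at 48 hr, against 77.7, 67.7 and 79.8 CPM at 0 hr. Mbd3 rose by 2.56-fold in KO and 2.60-fold in WT cells (edgeR adjusted p = 4.0e-08 and 3.1e-08), the values of the genotypes being close at both times. Mbd2, whose protein takes the same place in the other form of the complex and does bind methylated DNA, averaged 159.98 CPM in KO 48 hr and 147 CPM in WT 48 hr, against 144 CPM in KO 0 hr and 127 CPM in WT 0 hr, and was not called (log2 fold changes of 0.15 and 0.21, edgeR adjusted p = 0.21 and 0.072). Its direction depended on the scaling: Mbd2 was called lower with upper-quartile factors (-0.48 in KO and -0.46 in WT, adjusted p = 0.00054 and 0.00069) and with library totals (-0.67 and -0.68, adjusted p = 2.9e-05 and 2.3e-05). In WT cells it was called higher with relative log expression (0.31, adjusted p = 0.014).

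The linker gene Gatad2a (chromosome 8, 69907076 to 69996384, minus strand; p66-alpha) was at 315, 287 and 265 CPM in KO 48 hr libraries, against 109, 164 and 112 CPM in KO 0 hr libraries. The WT values were 255, 225 and 282 CPM at 48 hr, against 98.2, 128 and 115 CPM at 0 hr. It rose by 2.25-fold in KO and 2.24-fold in WT cells (edgeR adjusted p = 1.9e-05 in each). Gatad2b (chromosome 3, 90293178 to 90363407, plus strand; p66-beta) was the least abundant of the 10 genes, at 14.5, 14.8 and 9.65 CPM in KO 48 hr libraries, against 11.2, 10.5 and 8.39 CPM in KO 0 hr libraries. The WT values were 8.83, 8.26 and 9.01 CPM at 48 hr, against 9.37, 7.49 and 7.96 CPM at 0 hr. Its 48 hr and 0 hr libraries overlapped in both genotypes, and the log2 fold changes of 0.37 in KO (95% interval -0.04 to 0.79, edgeR adjusted p = 0.099) and 0.07 in WT cells (-0.35 to 0.49, edgeR adjusted p = 0.75) were not called. In KO cells Gatad2b was called by DESeq2 (log2 0.41, adjusted p = 0.046) and by edgeR without KO 48 hr replicate 12, its lowest library of that group (log2 0.55, adjusted p = 0.017). Over the edgeR fits that left out 1 library, its log2 fold change in KO cells ran from 0.22 to 0.55, with adjusted p from 0.017 to 0.37.

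**Figure D2:**
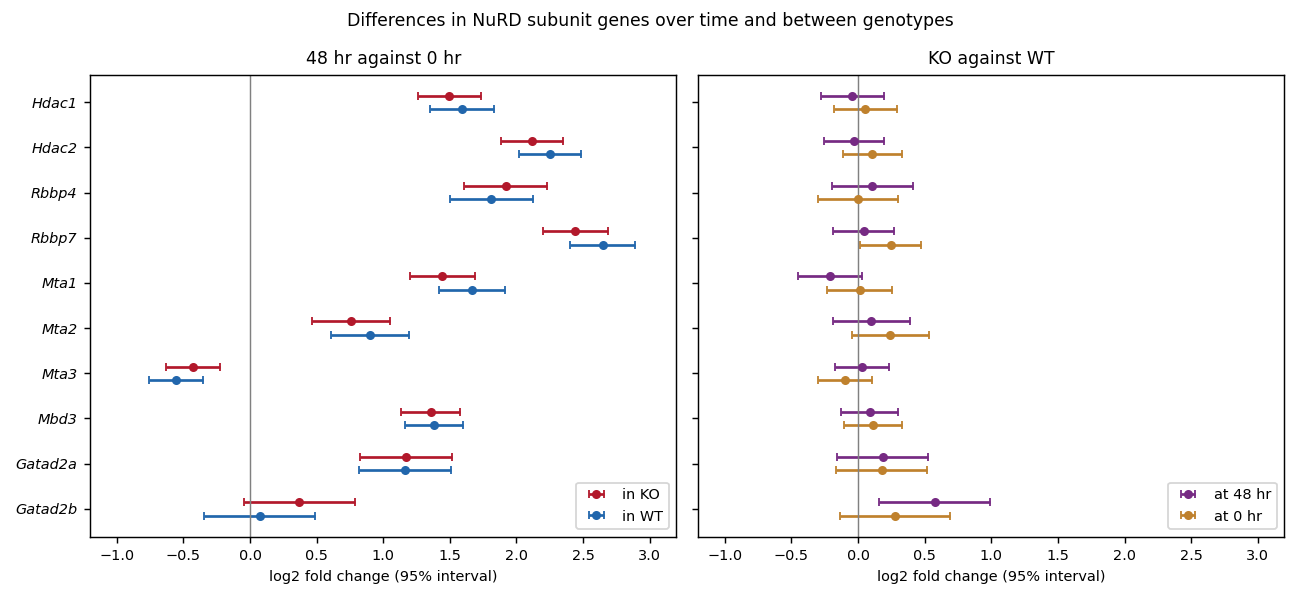
Log2 fold change (horizontal axis) with its 95% interval for each subunit gene, at 48 hr against 0 hr in KO and WT cells (left) and between KO and WT for each time point (right). Over time 8 genes lie above 0, Mta3 lies below it and the intervals of Gatad2b reach it, while between genotypes the values run from -0.21 (Mta1, 48 hr) to 0.57 (Gatad2b, 48 hr).

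The size of these changes depended on how the libraries were scaled. The TMM factors were 0.723 to 0.766 at 48 hr and 1.28 to 1.42 at 0 hr. With library totals alone the median of all genes moved by -0.81 in KO and -0.89 in WT cells on the log2 scale, and with upper-quartile factors by -0.63 and -0.67. Of all calls in KO cells 24.4% were higher with library totals and 28.8% with upper-quartile factors, beside 46.7% with TMM. In WT cells 23.2% and 27.6% were higher, beside 44.6% with TMM. Rbbp7, Hdac2, Rbbp4, Hdac1, Mta1 and Mbd3 rose and Mta3 fell in both genotypes under all 4 scalings (TMM, relative log expression, upper quartile and library totals). Mta2 was not called with upper-quartile factors (log2 0.13 in KO, adjusted p = 0.37; 0.23 in WT, adjusted p = 0.12) or with library totals (-0.06, adjusted p = 0.70; 0.01, adjusted p = 0.93), and Gatad2a was not called with library totals (0.35, adjusted p = 0.064; 0.28, adjusted p = 0.13). In WT cells Gatad2b was called lower with both (log2 -0.61, adjusted p = 0.017, and -0.82, adjusted p = 0.0024). Relative to the median of all genes under the same scaling, 9 of the 10 genes stood higher in both genotypes under each of the 4 scalings. Mta3 stood below that median, by 0.13 in KO and 0.16 in WT cells with TMM on the log2 scale. Gatad2b stood 0.67 above it in KO and 0.46 above it in WT cells.

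**Figure D3:**
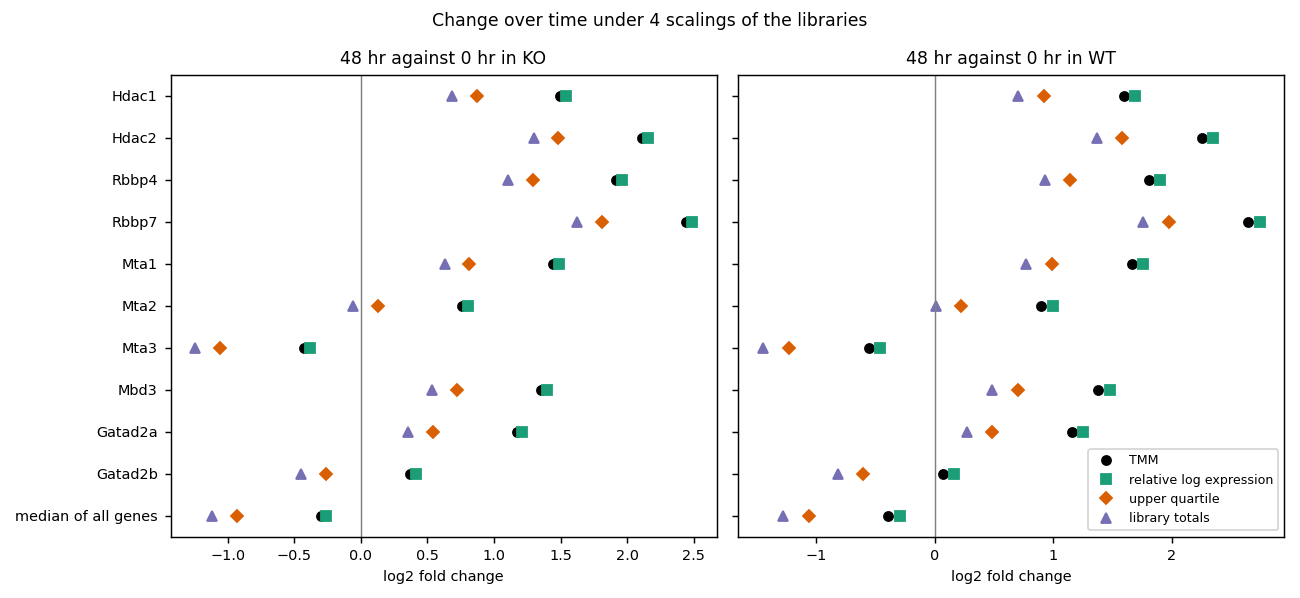
Log2 fold change at 48 hr against 0 hr (horizontal axis) in KO (left) and WT cells (right) for each subunit gene and for the median of all genes, under TMM, relative log expression, upper-quartile and library-total scaling. The 4 symbols are shifted alike in every row; Mta2 lies near 0 with library totals (-0.06 in KO and 0.01 in WT), and Mta3 lies below 0 with each.

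A ratio of a pair of paralogs within a library does not depend on that scaling, and all 6 ratios examined differed between 48 hr and 0 hr. Reads were divided by the length of the longest coding transcript of each gene in GENCODE, and time labels were permuted within genotype in an exact two-sided test of 400 arrangements. Each of the 6 ratios gave an exact permutation p = 0.005, the smallest this test can give (adjusted over 12 tests, p = 0.01), and in each the 48 hr libraries did not overlap the 0 hr libraries of the same genotype. How often the ratio of other pairs of genes differs was not counted. Of all genes, 70.7% in KO and 73.9% in WT cells were called over time, so a shifted ratio may be common. Among the deacetylases, Hdac1 over Hdac2 averaged 2.59 ± 0.277 in KO and 2.60 ± 0.053 in WT at 48 hr, against 3.98 ± 0.506 in KO and 4.12 ± 0.065 in WT at 0 hr (SD, n = 3), a mean log2 difference of -0.64. Rbbp4 over Rbbp7 averaged 0.434 ± 0.025 in KO and 0.414 ± 0.020 in WT at 48 hr, against 0.627 ± 0.122 in KO and 0.733 ± 0.065 in WT at 0 hr (log2 difference -0.67). Gatad2a over Gatad2b stood 0.96 higher on the log2 scale at 48 hr, and Mbd3 over Mbd2 stood 1.19 higher, with a mean ratio of 1.53 in KO and 1.56 in WT at 48 hr, against 0.665 in KO and 0.695 in WT at 0 hr. Per length, Mbd3 thus stood above Mbd2 at 48 hr and below it at 0 hr.

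Within the scaffold family, Mta2 took the largest share of reads per length at both times, and the share of Mta3 was smaller at 48 hr. Mta3 made up 11.7% ± 0.61 of the 3 genes' reads per length at 48 hr in KO cells and 12.0% ± 1.06 in WT cells, against 24.2% ± 4.33 at 0 hr in KO cells and 28.2% ± 1.83 in WT cells (SD, n = 3). Mta2 made up 80.1% (KO) and 78.1% (WT) at 48 hr, against 71.2% (KO) and 66.9% (WT) at 0 hr. Mta1 made up 8.18% and 9.86% in KO and WT at 48 hr, against 4.59% and 4.98% in KO and WT at 0 hr. The log2 ratio of Mta3 over Mta2 differed by -1.33 between 48 hr and 0 hr, and that of Mta1 over Mta2 by 0.71.

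**Figure D4:**
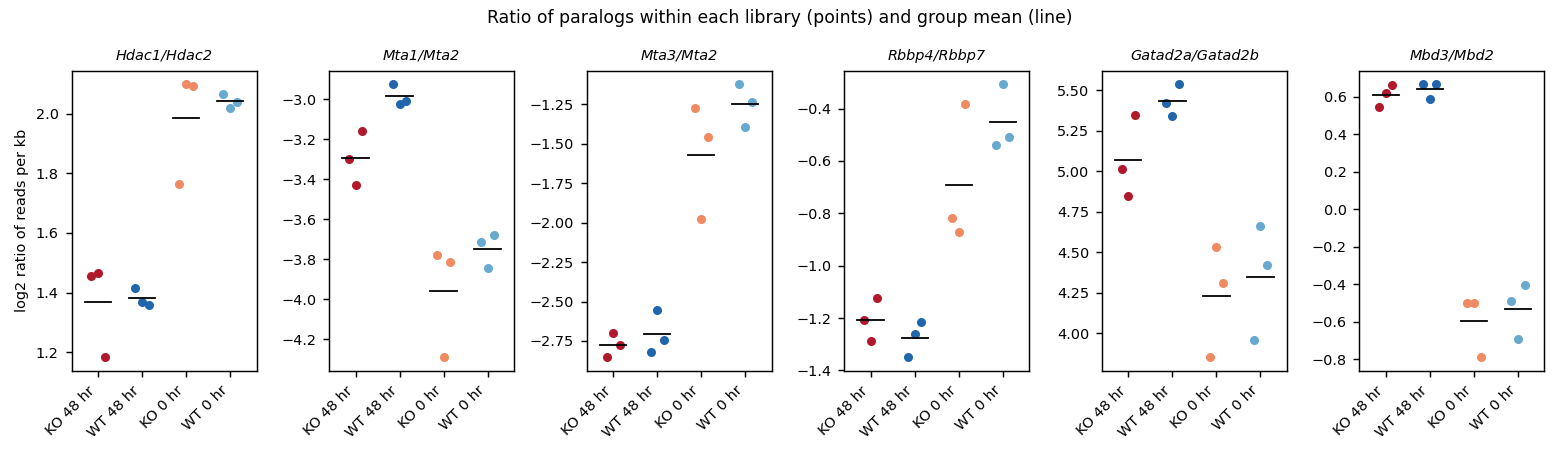
Log2 ratio of reads per kilobase of 6 paralog pairs (vertical axes, each with its own range) in the 12 libraries, with KO 48 hr, WT 48 hr, KO 0 hr and WT 0 hr from left to right. Points are libraries and lines are group means; each 48 hr group lies apart from the 0 hr group of its genotype, by mean differences from -1.33 (Mta3/Mta2) to 1.19 (Mbd3/Mbd2).

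Across the 10 genes, the level per length was ordered in the same way in both genotypes at 48 hr: Rbbp7, Hdac1, Rbbp4, Mta2, Mbd3, Hdac2, Gatad2a, Mta3, Mta1 and Gatad2b, with no overlap between the library ranges of neighbours. Levels ran from 402 CPM per kilobase for Rbbp7 to 1.74 for Gatad2b in KO 48 hr, and from 389.9 to 1.17 in WT 48 hr. At 0 hr Hdac1 came first in both genotypes (88.0 CPM per kilobase in KO and 84.8 in WT) and Gatad2b last (1.35 and 1.11), and neighbours overlapped in 5 of 9 steps in KO and 4 of 9 in WT. There Hdac2 stood eighth in both, below Mta3 (22.2 against 28.8 CPM per kilobase in KO, and 20.6 against 30.8 in WT). The lengths are those of GENCODE and not of the counted transcripts, which the table does not give. For Gatad2b the longest coding transcript has 7438 bases and the median one 2162. The order depended in part on that choice. With the median length, Mbd3 came before Mta2 at 48 hr (149 against 146 CPM per kilobase in KO and 140.2 against 137 in WT), with overlapping libraries. At 0 hr Rbbp7 then came first in KO (89.0 CPM per kilobase, against 88.0 for Hdac1) and Hdac1 in WT (84.8, against 75.1 for Rbbp7), again with overlapping libraries.

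Of the Mta3 transcripts, 2 fell and 1 rose in both genotypes. Of the 33 transcripts of the 10 genes 30 could be tested, and with each transcript as its own feature 14 rose and 3 fell in KO cells and 15 rose and 4 fell in WT cells at 48 hr relative to 0 hr, beside 49.8% and 52.5% of all tested transcripts called. The Mta3 transcript uc012axw.1 fell, with log2 fold changes of -1.11 in KO (edgeR adjusted p = 4.1e-05) and -1.51 in WT cells (edgeR adjusted p = 3.8e-06). It held 30.1%, 29.6% and 25.9% of the gene's estimated reads in KO 48 hr libraries, against 49.9%, 42.2% and 46.6% in KO 0 hr libraries. The share was 24.5%, 24.1% and 23.0% in WT 48 hr libraries, against 49.9%, 45.9% and 46.9% in WT 0 hr libraries. The low transcript uc008dsh.2 fell as well, with log2 fold changes of -2.28 in KO and -2.11 in WT cells (edgeR adjusted p = 0.0029 and 0.0042), and held 1.78% in KO and 1.93% in WT at 48 hr, against 6.54% in KO and 5.81% in WT at 0 hr. The transcript uc008dsg.2 rose, with log2 fold changes of 0.50 in KO and 0.51 in WT cells (edgeR adjusted p = 0.046 and 0.042). It held 44.0%, 40.0% and 47.4% in KO 48 hr libraries, against 16.2%, 26.6% and 26.1% in KO 0 hr libraries. The share was 44.8%, 45.1% and 43.8% in WT 48 hr libraries, against 18.1%, 25.7% and 22.1% in WT 0 hr libraries. The most abundant Mta3 transcript was therefore uc008dsg.2 in every 48 hr library and uc012axw.1 in every 0 hr library. Shares were not tested, and how often the leading transcript of other genes changed was not counted. Shares do not depend on the scaling, but the rise of uc008dsg.2 does: with library totals its log2 fold changes were -0.31 in KO and -0.42 in WT cells (adjusted p = 0.145 and 0.057), and with upper-quartile factors 0.21 and 0.17 (adjusted p = 0.33 and 0.43).

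**Figure D5:**
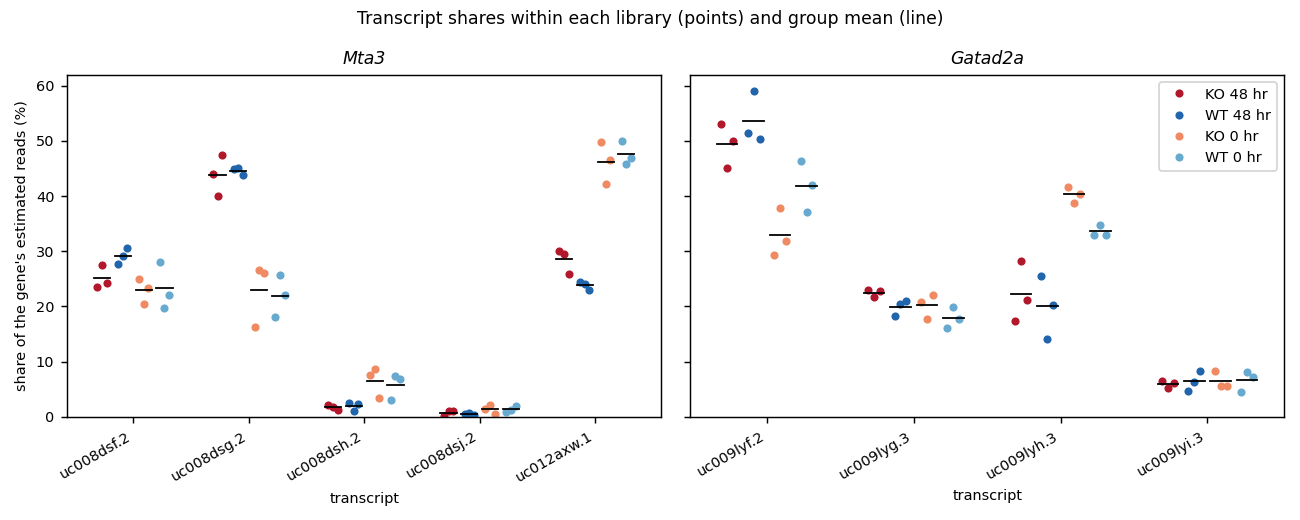
Share of each gene's estimated reads (vertical axis, percent) held by the transcripts of Mta3 (left) and Gatad2a (right), with KO 48 hr, WT 48 hr, KO 0 hr and WT 0 hr from left to right within each transcript. Points are libraries and lines are group means; uc008dsg.2 leads in Mta3 at 48 hr (43.8% in KO and 44.6% in WT) and uc012axw.1 at 0 hr (46.2% and 47.6%).

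Gatad2a also had transcript shares that differed between times, again without a test. Its transcript uc009lyf.2 rose in both genotypes (log2 1.72 in KO and 1.57 in WT cells, edgeR adjusted p = 0.00015 and 0.00027) and held 49.4% (KO) and 53.6% (WT) of reads at 48 hr, against 33.0% (KO) and 41.8% (WT) at 0 hr. The transcript uc009lyh.3 was not called (log2 0.31 and 0.47, edgeR adjusted p = 0.36 and 0.18) and held 22.3% and 20.02% in KO and WT at 48 hr, against 40.3% and 33.6% in KO and WT at 0 hr. In Hdac2 and Rbbp7 a single transcript held nearly all reads at both times. The transcript uc007evf.1 held 97.9% to 99.9% of Hdac2 by group, and uc009uug.2 held 97.9% of Rbbp7 in KO and 97.5% in WT at 48 hr, against 91.2% in KO and 91.8% in WT at 0 hr. How an estimate is divided among overlapping transcripts was not checked against reads, and the library kit does not mark strand.

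Between genotypes none of the 10 genes was called. At 48 hr 0 of 10 passed edgeR's test, beside 2.02% of all genes called (1.47% higher and 0.544% lower), with 1 of 10 at an unadjusted p under 0.05 and 0 by DESeq2 or limma-voom. The median log2 fold change was 0.06, beside 0.01 for all genes. At 0 hr 0 of 10 passed, beside 1.11% of all genes (0.680% higher and 0.429% lower), with 1 at an unadjusted p under 0.05 and 0 by DESeq2 or limma-voom, and the median was 0.11, beside -0.00 for all genes. Of all 19125 genes, 2749 at 48 hr and 2040 at 0 hr had an unadjusted p under 0.05. Over all genes, edgeR's common coefficient of variation between libraries was 23.9% in KO 48 hr and 31.1% in KO 0 hr. In WT it was 14.3% at 48 hr and 17.7% at 0 hr, while the fit used 1 estimate of spread per gene for all 4 groups. The 95% intervals over the 10 genes ran from -0.45 to 0.99 at 48 hr and from -0.30 to 0.69 at 0 hr on the log2 scale. For Hdac1 they were -0.28 to 0.19 at 48 hr and -0.18 to 0.29 at 0 hr, for Hdac2 -0.25 to 0.19 and -0.12 to 0.33, and for Mbd3 -0.13 to 0.30 and -0.10 to 0.33.

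The largest difference between genotypes was in Gatad2b at 48 hr, where the 3 KO libraries given above, from 9.65 to 14.8 CPM, lay above the 3 WT libraries, from 8.26 to 9.01 CPM. The log2 fold change was 0.57 (SE 0.19, 95% interval 0.16 to 0.99, unadjusted p = 0.011, edgeR adjusted p = 0.17). Without KO 48 hr replicate 12, the lowest of the 3 KO libraries in this gene, which also lay toward the WT libraries over all genes, it was 0.75 (edgeR adjusted p = 0.032). Without KO 0 hr replicate 6 as well, a fit added after seeing the data, it was again 0.75 (edgeR adjusted p = 0.017). Leaving out the lowest library of the higher group enlarges the difference by construction, so these fits add no support. Over the 12 fits that left out 1 library the log2 fold change ran from 0.42 to 0.75, with edgeR adjusted p from 0.032 to 0.54. At 0 hr the libraries overlapped, with a log2 fold change of 0.28 (95% interval -0.14 to 0.69, edgeR adjusted p = 0.71). Chd4 was at 74.7 CPM in KO 48 hr replicate 12, against 51.3 and 38.8 CPM in the other KO libraries of that time, and its part in the level of Gatad2b was not tested.

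At 48 hr KO libraries also lay above WT libraries in Rbbp4 and below them in Mta1, without a call (log2 0.11 and -0.21, edgeR adjusted p = 0.80 and 0.43). KO lay above WT without overlap in 10.7% of all genes and below in 9.53%, so 2 genes above and 1 below among 10 is near that background. At 0 hr the libraries of all 10 genes overlapped between genotypes, beside 7.02% of all genes above and 7.92% below without overlap. The lowest p at 0 hr was that of the X-linked Rbbp7, with a log2 fold change of 0.25 (95% interval 0.02 to 0.47, unadjusted p = 0.038, edgeR adjusted p = 0.41). At 48 hr the log2 fold change of Rbbp7 was 0.04 (edgeR adjusted p = 0.92). The part of sex-linked expression in these values was not tested.

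One ratio of paralogs differed between genotypes in a test over both times. Mta1 over Mta2 averaged 0.102 ± 0.010 in KO 48 hr and 0.126 ± 0.005 in WT 48 hr, and 0.065 ± 0.012 in KO 0 hr and 0.075 ± 0.004 in WT 0 hr (SD, n = 3). At 48 hr the libraries were apart, with 0.093 to 0.112 in KO and 0.123 to 0.132 in WT. At 0 hr only KO replicate 5 (0.051) lay below the WT libraries (0.070 to 0.078), and KO replicates 4 and 6 (0.073 and 0.071) lay among them. The mean log2 difference was -0.26 (-0.31 at 48 hr and -0.21 at 0 hr; exact permutation within time, p = 0.015, adjusted over 12 tests p = 0.026). It was negative in each of 12 repeats that left out 1 library (-0.31 to -0.18), but with adjusted p of 0.051 to 0.086 when WT 0 hr replicate 1 or 3 or WT 48 hr replicate 7, 8 or 9 was left out. The other 5 ratios had adjusted p of 0.18 to 0.57 between genotypes.

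The response to stimulation was not found to differ between genotypes for any of the 10 genes. The interaction gave 0 of 10 in edgeR, beside 0.115% of all genes (0.0680% higher and 0.0471% lower), and 0 by DESeq2 or limma-voom. At an unadjusted p under 0.05 there were 0 of 10, beside 1646 of 19125 genes. Chd4, the deleted gene, was not called in this test either, with a log2 value of -0.98 (95% interval -1.64 to -0.32, edgeR adjusted p = 0.35). The test could thus miss differences of that size. The 95% intervals of the interaction over the 10 genes ran from -0.56 to 0.89 on the log2 scale. The values furthest from 0 were -0.22 for Mta1 (95% interval -0.56 to 0.12), -0.20 for Rbbp7 (-0.53 to 0.12) and 0.30 for Gatad2b (-0.29 to 0.89), and the other 7 lay between -0.14 and 0.13. Among transcripts of the 10 genes 0 of 30 were called in KO against WT at 48 hr, beside 0.341% of all transcripts, 0 at 0 hr, beside 0.227%, and 0 in the interaction, beside 0.00819%, with 1, 2 and 0 at an unadjusted p under 0.05.

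Of 15 further NuRD subunits and accessory genes 6 rose and 7 fell in KO cells, and 4 rose and 5 fell in WT cells, at 48 hr relative to 0 hr. Their median log2 fold change was 0.15 in KO and 0.21 in WT cells, beside -0.30 and -0.39 for all genes, of which 33.0% rose and 37.7% fell in KO and 33.0% rose and 40.9% fell in WT cells. The falls include that of Chd4 itself in KO cells (log2 -0.68, edgeR adjusted p = 0.013), which was not called in WT cells (0.30, edgeR adjusted p = 0.21). They also include Chd5 in WT cells, with 29 estimated counts over the 0 hr libraries and 1 over the 48 hr libraries. Cdk2ap1, which encodes the small subunit DOC1, was at 260.4 ± 28.0 CPM in KO 48 hr and 258 ± 6.48 CPM in WT 48 hr, against 76.6 ± 6.61 CPM in KO 0 hr and 71.5 ± 4.37 CPM in WT 0 hr, and rose under all 4 scalings (log2 1.77 and 1.85 with TMM). Kdm1a, the histone demethylase LSD1, and the DNA-binding protein gene Bend3 rose as well, with log2 fold changes of 0.90 and 1.22 in KO and 0.80 and 1.37 in WT cells. Zfp687 and Zfp532, which encode zinc finger proteins of the ZMYND8 group, fell under all 4 scalings, with log2 fold changes of -1.03 and -1.47 in KO and -0.92 and -2.20 in WT cells. Zmynd8 itself did not fall: it was called higher in KO (log2 0.92, edgeR adjusted p = 0.00015) and not called in WT cells (0.26, edgeR adjusted p = 0.15). Over the scalings its log2 fold change ran from 0.10 to 0.96 in KO and from -0.63 to 0.36 in WT cells. Zfp532 was low throughout, at 0.912 CPM in KO 48 hr and 0.394 CPM in WT 48 hr, against 2.54 CPM in KO 0 hr and 1.82 CPM in WT 0 hr. Pwwp2b was called higher in KO cells (log2 1.26, edgeR adjusted p = 0.046), but not with upper-quartile factors (0.63, adjusted p = 0.296) or library totals (0.43, adjusted p = 0.47). With library totals 1 of the 15 rose and 8 fell in KO cells, and 1 rose and 11 fell in WT cells. Under that scaling neither Bend3 (0.40 in KO and 0.48 in WT, adjusted p = 0.11 and 0.058) nor Kdm1a (0.09 in KO and -0.09 in WT, adjusted p = 0.53 and 0.52) was called. Between genotypes at 48 hr Chd4 was lower, as above, and Chd5, a CHD ATPase best known from neurons, was called higher with 93 estimated counts over the KO libraries and 1 over the WT libraries, a call kept in 1 of 12 fits that left out 1 library. At 0 hr edgeR called 0 of 15 (1 at an unadjusted p under 0.05), and DESeq2 and limma-voom called 0.

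Of 14 factors known to bring NuRD to genes, 1 rose and 9 fell in KO cells, and 1 rose and 8 fell in WT cells, beside the shares of all genes above. Their median log2 fold change was -1.28 in KO and -1.03 in WT cells. With library totals 1 rose and 12 fell in KO cells, and 0 rose and 13 fell in WT cells. Some of the falls were in genes near 0: Zfpm2 was at 0.035 CPM in KO 48 hr, against 0.249 CPM in KO 0 hr. The Ikaros family gene Ikzf2 was at 0.301 CPM in KO 48 hr and 0.183 CPM in WT 48 hr, against 1.30 CPM in KO 0 hr and 1.26 CPM in WT 0 hr. Bcl11b, best known from T cells, was at 0.382 CPM in KO 48 hr and 0.563 CPM in WT 48 hr, against 2.71 CPM in KO 0 hr and 1.93 CPM in WT 0 hr. Of 7 T cell markers 6 fell in KO and 5 in WT cells, beside 37.7% and 40.9% of all genes. Their part in the level of Bcl11b was not tested. The one that rose with TMM was Prdm1, the regulator of plasma cell formation, at 41.3 ± 15.8 CPM in KO 48 hr and 12.3 ± 2.25 CPM in WT 48 hr, against 5.12 ± 1.80 CPM in KO 0 hr and 5.71 ± 0.53 CPM in WT 0 hr. Its rise in WT cells was not called with library totals (log2 0.22, adjusted p = 0.49). Prdm1 was also higher in KO than in WT at 48 hr (log2 1.74, edgeR adjusted p = 0.0048), a call kept in 11 of 12 fits that left out 1 library. Of 6 plasma cell markers 3, with Prdm1 itself counted among them, were called higher in KO at 48 hr, beside 1.47% of all genes. The 6 summed to 665 to 845 CPM in KO 48 hr and 584 to 589.9 CPM in WT 48 hr, and to 519.7 to 823 CPM in KO 0 hr and 366 to 502 CPM in WT 0 hr. Ikzf1, which encodes Ikaros, was at 249.5 ± 17.9 CPM in KO and 181 ± 7.11 CPM in WT at 0 hr (log2 0.47, edgeR adjusted p = 0.041), a call kept in 2 of 12 fits that left out 1 library.

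Partners that share HDAC1 and HDAC2 or the RBBP chaperones were counted for comparison, beside the same shares of all genes. Of 9 genes of RBBP partner complexes 6 rose and 2 fell in KO and 6 rose and 3 fell in WT cells under TMM and under library totals alike. They included Ezh2, the methyltransferase of Polycomb repressive complex 2 (log2 3.55 in KO and 3.44 in WT cells), and Chaf1a of the chromatin assembly factor that deposits histones during replication (3.75 and 3.40). Of 14 genes of the SIN3 complex 9 rose and 2 fell in KO and 8 rose and 2 fell in WT cells, led by Sap30 (1.99 and 2.34) and Sap18 (1.73 and 1.87), but 5 rose and 9 fell in KO and 5 rose and 8 fell in WT cells with library totals. Of 9 CoREST genes 2 rose and 6 fell in KO and 1 rose and 3 fell in WT cells. Rcor2, which encodes a CoREST scaffold, rose in both (2.01 and 1.97), without a call in WT cells with library totals (1.07, adjusted p = 0.0503). Of 3 tested MiDAC genes 1 rose and 2 fell in each. With library totals 1 and 0 CoREST genes rose and 7 and 8 fell, and 0 MiDAC genes rose and 3 fell, in KO and WT cells. Of the 9 other HDAC genes 3 rose and 5 fell in each genotype, Hdac3 rising most (to 157 CPM in KO 48 hr and 159 CPM in WT 48 hr, against 55.4 CPM in KO 0 hr and 50.1 CPM in WT 0 hr) and Hdac11, Hdac9 and Hdac7 falling most. With library totals 2 rose and 6 fell in each. Between genotypes edgeR called 0 genes of these 5 lists at either time. At 48 hr 2 CoREST genes, 2 other HDAC genes, 1 RBBP partner, 0 SIN3 genes and 0 MiDAC genes had an unadjusted p under 0.05, and at 0 hr 4, 2, 2, 2 and 0. DESeq2 called 1 CoREST gene at 48 hr, and 1 CoREST gene, 1 RBBP partner and 2 SIN3 genes at 0 hr, and limma-voom called 0. Of all 19125 genes, 2749 at 48 hr and 2040 at 0 hr had an unadjusted p under 0.05, and DESeq2 called 1069 and 645.

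Markers of dividing and of other cells moved with the time of sampling. The summed level of 8 proliferation genes was 5205 to 5565 CPM in KO 48 hr and 5161 to 5469 CPM in WT 48 hr, against 244 to 281 CPM in KO 0 hr and 229 to 317 CPM in WT 0 hr. All 8 rose in both genotypes, beside 33.0% of all genes in each. Erythroid markers, of which 4 of 6 are in the table, summed to 4.80 to 13.3 CPM in KO 48 hr and 10.6 to 13.4 CPM in WT 48 hr, against 278 to 3366 CPM in KO 0 hr and 596 to 880.3 CPM in WT 0 hr. The 7 myeloid markers summed to 14.8 to 31.9 CPM in KO 48 hr and 15.7 to 16.6 CPM in WT 48 hr, against 130.4 to 371 CPM in KO 0 hr and 123 to 241 CPM in WT 0 hr. Markers of T cells (7), NK cells (5) and platelets (4) each summed to 1.56 to 6.99 CPM at 48 hr and to 6.20 to 73.8 CPM at 0 hr, and no marker of these lists was at 0 in all 3 libraries of a group. Their part in the changes of the subunit genes was not tested.

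For each of the 10 genes the most similar profile over the 12 libraries was sought among 10080 other genes with a mean of at least 5 CPM, by the root mean square difference of centred log2(CPM + 0.5). These distances share the libraries and their scaling and are given as a description. The nearest genes were Ddx10 to Hdac1 (0.062), Gpr89 to Hdac2 (0.061), Pcbp1 to Mta1 (0.061), Ctnnb1 to Mta2 (0.090), Mysm1 to Mta3 (0.078), Trim28 to Mbd3 (0.072), Tfg to Rbbp4 (0.080), Ltv1 to Rbbp7 (0.077), Akt1 to Gatad2a (0.090) and Ssbp2 to Gatad2b (0.135). Among the 10 genes themselves Hdac1 and Mta1 lay closest, at 0.135, and the nearest other subunit to Mta3 was Gatad2b, at 0.441.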

How the data were processed

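RNA of 12 libraries (SMART-Seq v4 amplification, paired reads) was sequenced. Per the submitters' processing notes, bcl2fastq 2.20.0.422, Trimmomatic 0.36, Salmon 0.8.2 and DESeq2 1.14.1 were used with mm10. The authors deposited estimated counts per transcript as whole numbers, with no normalization. These were summed by gene symbol after trimming spaces from 344 names, none of them of the 10 genes. Genes were kept by filterByExpr (minimum count 10, minimum total 15), and edgeR 4.0.16 in R 4.3.3 was fitted to all 12 libraries in 4 groups (TMM, robust quasi-likelihood test, 8 residual degrees of freedom, Benjamini-Hochberg over all genes). SEs and 95% intervals come from the same fit. DESeq2 1.42.0, limma 3.58.1 (voom), other scalings and filters, and leaving out libraries were alternatives, and leaving out KO replicates 6 and 12 together, the scalings of transcripts, and levels per median transcript length, were added after seeing the data. Promoters came from RefSeq on GRCm38.p6, and gene positions and lengths from GENCODE on mm10. The edgeR fit and the permutation test were tested on simulated data. Members of the NuRD set and of the other lists were chosen with earlier results of these data known. All 10 genes are named in every comparison. Of the other lists, names were taken from the called genes with the largest change, at most 3 per list and direction, plus Chd4, and not all of these are described. Mbd2, Zmynd8, and Kdm1a in KO cells, were added beside them. Totals per library limit the precision of low genes, and p-values cover the spread between libraries.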

Additional observations from a re-analysis of the deposited data

How the results depend on the processing

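No paired analysis was possible because the replicate numbers of the 4 groups are all different and no label ties a 48 hr library to a 0 hr library, although they may share animals. Of 1140 values of the 10 genes under alternatives, 1068 kept their direction and side of the threshold, 60 uncalled values changed sign or moved, 4 gained a call, 5 lost one and 3 reversed. The 3 were Mta2 in KO cells with library totals (-0.059) and Gatad2b in WT cells with upper-quartile factors (-0.61) and library totals (-0.82), all at 48 hr against 0 hr on the log2 scale, and the scalings shift all genes alike. The number of the 10 genes called in KO against WT at 48 hr was 0 to 1 when 1 library was left out, and 1 without KO replicates 6 and 12. Leaving out 1 library gave genotype differences in log2 ratio of -0.31 to -0.18 for Mta1/Mta2, -0.063 to 0.021 for Hdac1/Hdac2 and -0.089 to 0.00046 for Mbd3/Mbd2. Over all genes, edgeR's 386 calls in KO against WT at 48 hr became 1069 with DESeq2, 193 with limma-voom, 1351 without KO replicates 6 and 12, and 136 to 1080 with 1 library left out. The 212 at 0 hr became 645 with DESeq2, 75 with only the libraries compared, 674 without KO replicates 6 and 12, and 79 to 426 with 1 left out. The 22 of the interaction became 220 with DESeq2, 136 without both, and 3 to 90 with 1 left out. At 0 hr 61.3% of the calls were higher in KO with TMM, 53.2% with upper-quartile factors and 50.7% with library totals. The cause was not tested.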
